A study of Mus musculus with 7 samples.

Results

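DNA damage sensing and repair genes were followed in left ventricle of telomerase-deficient mice. The set holds 53 genes of the 22027 listed in the count table, matched by gene symbol through the Ensembl identifiers in the table, and all 53 were listed. They were sorted by role into checkpoint kinases and their partner (5 genes), break sensing and chromatin signalling (8), homologous recombination (7), end joining (5), base excision and single-strand break repair (12), nucleotide excision repair (9), mismatch repair (3), and crosslink repair with RecQ helicases (4). Genes were chosen by role and not by their values, though with earlier results of these data known.

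The series compared RNA of left ventricular tissue from 4 libraries labelled G3, from telomerase-deficient mice, with 3 labelled G3 PGC1aOE, from mice of that kind in which PGC1alpha, a coactivator of mitochondrial genes, was overexpressed. The strain was C57BL/6J and the age 12 months in all 7, and telomerase deficiency is shared by both groups, with no telomerase-competent group among the samples analysed here. The labels name neither the telomerase allele, nor the promoter behind the overexpression, nor the sex, nor any animal or litter that libraries may have in common. The p-values therefore reflect how these 7 libraries scatter, which may be technical. Total counts ran from 10106705 to 16056740 per library.

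Telomeres that become too short are read by the cell as broken DNA ends. Breaks activate the kinases ATM and ATR, which phosphorylate histone H2AX and the checkpoint kinases, and broken ends are then joined directly or repaired from the sister chromatid by homologous recombination. Recombination is largely limited to dividing cells, whereas adult cardiomyocytes have left the cell cycle. Damage to single bases and bulky lesions are handled by the excision pathways, which also work in non-dividing cells.

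The labels and the tissue were checked first. Ppargc1a (ENSMUSG00000029167), which encodes PGC1alpha, stood at 94.6, 56.7, 118 and 86.6 CPM (read counts scaled to library size, with TMM factors) in G3 1 to 4 and at 103, 43.9 and 58.0 CPM in G3 PGC1aOE 1 to 3. Its message was thus not raised where the label says PGC1aOE (log2 fold change −0.38, SE 0.34, edgeR adjusted p = 0.847, exact permutation p = 0.314 over 35 splits, whose smallest p is 0.0286), and every direction given here rests on the label alone. Tert, the telomerase reverse transcriptase, had 0 reads in 6 libraries and 1 read in G3 PGC1aOE 2. With no telomerase-competent group to compare, these counts cannot check the telomerase label. All 8 cardiomyocyte markers were detected, with a summed level of 46000 to 57200 FPKM (fragments scaled to library size and gene length) in G3 and 45300 to 76800 FPKM in the other group. Of these markers, 3 had higher values under the PGC1aOE label (median log2 fold change −0.12). Of the other cell types, 7 of 8 fibroblast markers had higher values under the PGC1aOE label (median log2 fold change 0.85, sums of 301 to 666 against 558 to 772 FPKM), as did 7 of 8 endothelial markers (median 0.35, sums of 232 to 314 against 252 to 432 FPKM) and all 9 tested macrophage and leukocyte markers (median 0.51, sums of 74.9 to 205 against 111 to 186 FPKM). Libraries did not overlap between the groups for 4 fibroblast and 3 macrophage and leukocyte markers, beside 4.59% of all tested genes. They overlapped for every cardiomyocyte and endothelial marker. No marker passed the threshold, none was at 0 in every library, and the part of these cell types in the repair genes was not tested. In bulk tissue, fewer cells of a type and less RNA per cell cannot be told apart.

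The repair genes were lowly to moderately expressed, with excision repair and end joining above recombination and crosslink repair. Together they took between 0.05% and 0.079% of the counts per library. Over all 7 libraries the mean level was at least 10 FPKM for 7 genes, between 1 and 10 FPKM for 36 and below 1 FPKM for 10. The median was 3.87 FPKM over the 53 genes, beside 7.54 FPKM over the genes with enough reads to be tested and 1.23 FPKM over all genes listed. The order of the genes was much the same in both groups (Spearman's rho of 0.98 between the group means over the 53 genes, a description across genes that share libraries and lengths). Nucleotide excision repair had the highest class median at 7.01 FPKM, followed by base excision and single-strand break repair at 5.55, end joining at 4.70 and break sensing at 4.08. Checkpoint kinases (1.79 FPKM), mismatch repair (1.70), homologous recombination (0.767) and crosslink repair with RecQ helicases (0.449) were lower.

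**Figure D1:**
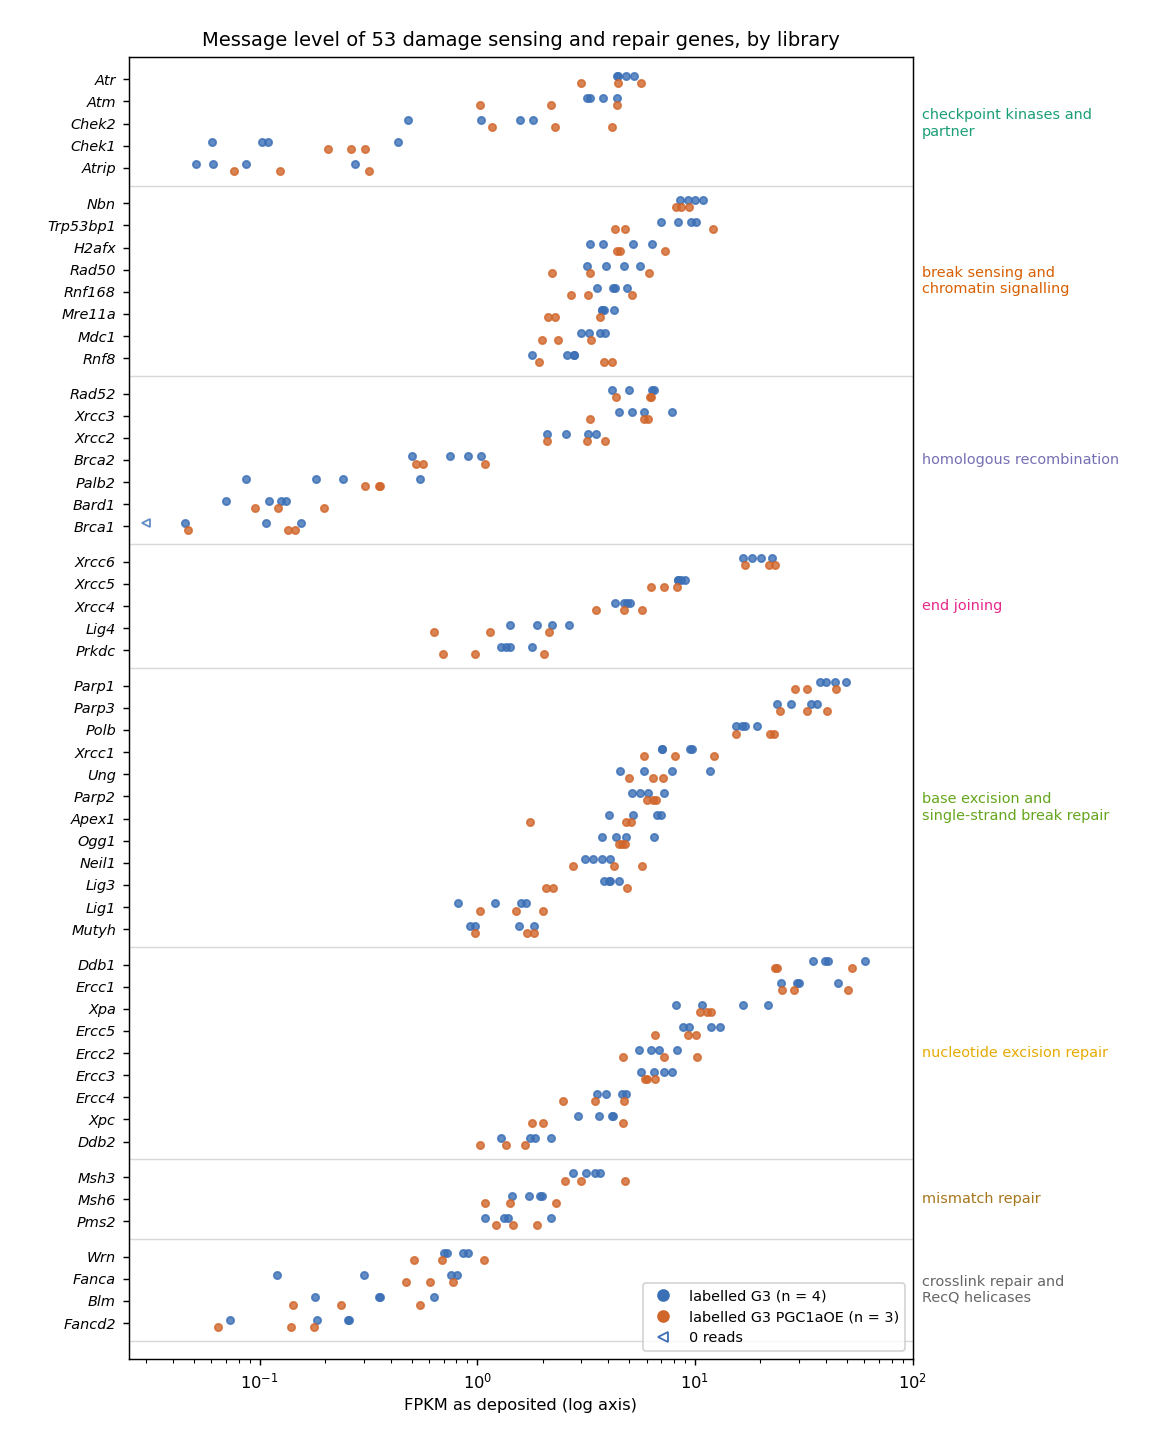
Level of each of the 53 genes in each library, as deposited FPKM on a log axis, with genes grouped by role and ordered by mean level within a role (blue, 4 libraries labelled G3; orange, 3 labelled G3 PGC1aOE; open triangle, 0 reads). Parp1 and Ddb1 average 39.5 and 39.4 FPKM, whereas Brca1, Bard1, Fancd2, Atrip and Chek1 lie below 0.5 FPKM in every library.

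The 5 most abundant genes were Parp1, Ddb1, Ercc1, Parp3 and Xrcc6. Parp1, which makes poly(ADP-ribose) at nicks and breaks, averaged 39.5 FPKM (range 28.7 to 49.2). Ddb1, an adaptor of the ultraviolet damage recognition complex and of cullin ubiquitin ligases, averaged 39.4 FPKM (23.4 to 60.2). Ercc1, a subunit of the excision endonuclease, averaged 33.4 FPKM (24.9 to 50.3), Parp3 31.4 FPKM (23.9 to 40.6) and Xrcc6, a subunit of the Ku end-binding complex, 20 FPKM (16.7 to 23.2). Polb, the gap-filling polymerase of base excision, followed at 18.4 FPKM (15.5 to 23.1) and Xpa, the damage verification factor, at 13.0 FPKM (8.15 to 21.7).

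Levels per length depend on the lengths used by the authors, which were often short. The length behind the FPKM was below 50% of the longest coding transcript in the GENCODE M21 annotation for 20 of the 53 genes, for example 980 of 3873 bases for Parp1 and 999 of 3296 for Xrcc6. Per base of the longest coding transcript, Parp1 stood at rank 5 and Xrcc6 at rank 10, Ddb1 was highest, and 16 genes were below a level of 1. The class medians were then 4.67 for nucleotide excision, 4.50 for base excision, 4.36 for end joining, 1.81 for break sensing, 1.71 for mismatch repair, 0.813 for checkpoint kinases, 0.275 for crosslink repair and 0.193 for homologous recombination, so the excision and end joining classes remained above the other classes while the lowest places changed order. The ranks of the 53 genes by both measures had a Spearman's rho of 0.95. Reads of overlapping genes are a further limit, since 22 of the 53 genes share annotated exon bases with another listed gene. For 19 of them that gene lies on the opposite strand, which the library kit does not tell apart, as for Lig3 with Rffl (1826 bases), Trp53bp1 with Tubgcp4 (1873) and Apex1 with Pip4p1 (684). Atrip with Trex1 (996) and Rnf8 with Gm28043 (744) overlap on the same strand.

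Partner subunits were compared within each library. Ercc1 exceeded its endonuclease partner Ercc4 in all 7 libraries, with a median FPKM ratio of 8.23 (range 6.03 to 14.4), and still by 6.59 (4.83 to 11.5) per base of the longest transcript. Ddb1 exceeded Ddb2, the subunit that touches the lesion, by 23.1 (17.2 to 32.6), and Parp1 exceeded Parp2 by 7.30 (4.34 to 8.09). These orders held per base of the longest transcript in all 7 libraries, at 25.6 for Ddb1 and 1.96 for Parp1. The Ku pair gave no such order. Xrcc6 exceeded Xrcc5 by 2.37 (1.99 to 3.47) in FPKM, but by the longest transcript the ratio was 0.717 (0.604 to 1.05) and was above 1 in 1 library. None of these FPKM ratios separated the groups.

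No repair gene passed the threshold between the groups. edgeR's quasi-likelihood test, run on all 12674 genes with enough reads, called 0 genes (0.0%) at an adjusted p under 0.05, and 0 of the 48 repair genes that could be tested. At an unadjusted p under 0.05 it gave 548 of 12674 genes (4.32%) and 0 of 48 repair genes. DESeq2 called 3 of all genes (0.0237%), none of them a repair gene, with 5.16% of all genes and 0 repair genes at an unadjusted p under 0.05. limma voom called 0 (0.0%), with 8.84% of all genes and 3 of 48 repair genes, Chek2, Xpc and Polb, at an unadjusted p under 0.05. Counts of repair genes at that unadjusted threshold in other edgeR fits were 1, Chek2, without a filter on low counts (4.28% of all genes), 1, Chek2, without G3 3 (2.61%) or without G3 4 (4.37%), and 2, Chek2 and Lig4, with the replicate number as a block (9.15%, with 0 repair genes and 0.0473% of all genes passing after adjustment). Of the 48 genes, 22 had a positive and 26 a negative log2 fold change (labelled G3 PGC1aOE minus G3), beside 50.9% and 49.1% of all tested genes. Their median log2 fold change was −0.027, beside 0.0076 over all tested genes, and their adjusted p ranged from 0.847 to 0.998.

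The data limit the size of most differences. The 95% interval of the log2 fold change lay within a 2-fold change either way for 37 of the 48 genes and reached 2-fold for 11. The 5 genes not tested were Atrip, Chek1, Brca1, Bard1 and Fancd2, with 20, 33, 16, 62 and 27 reads over all 7 libraries. For these a difference was not detectable at this depth.

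**Figure D2:**
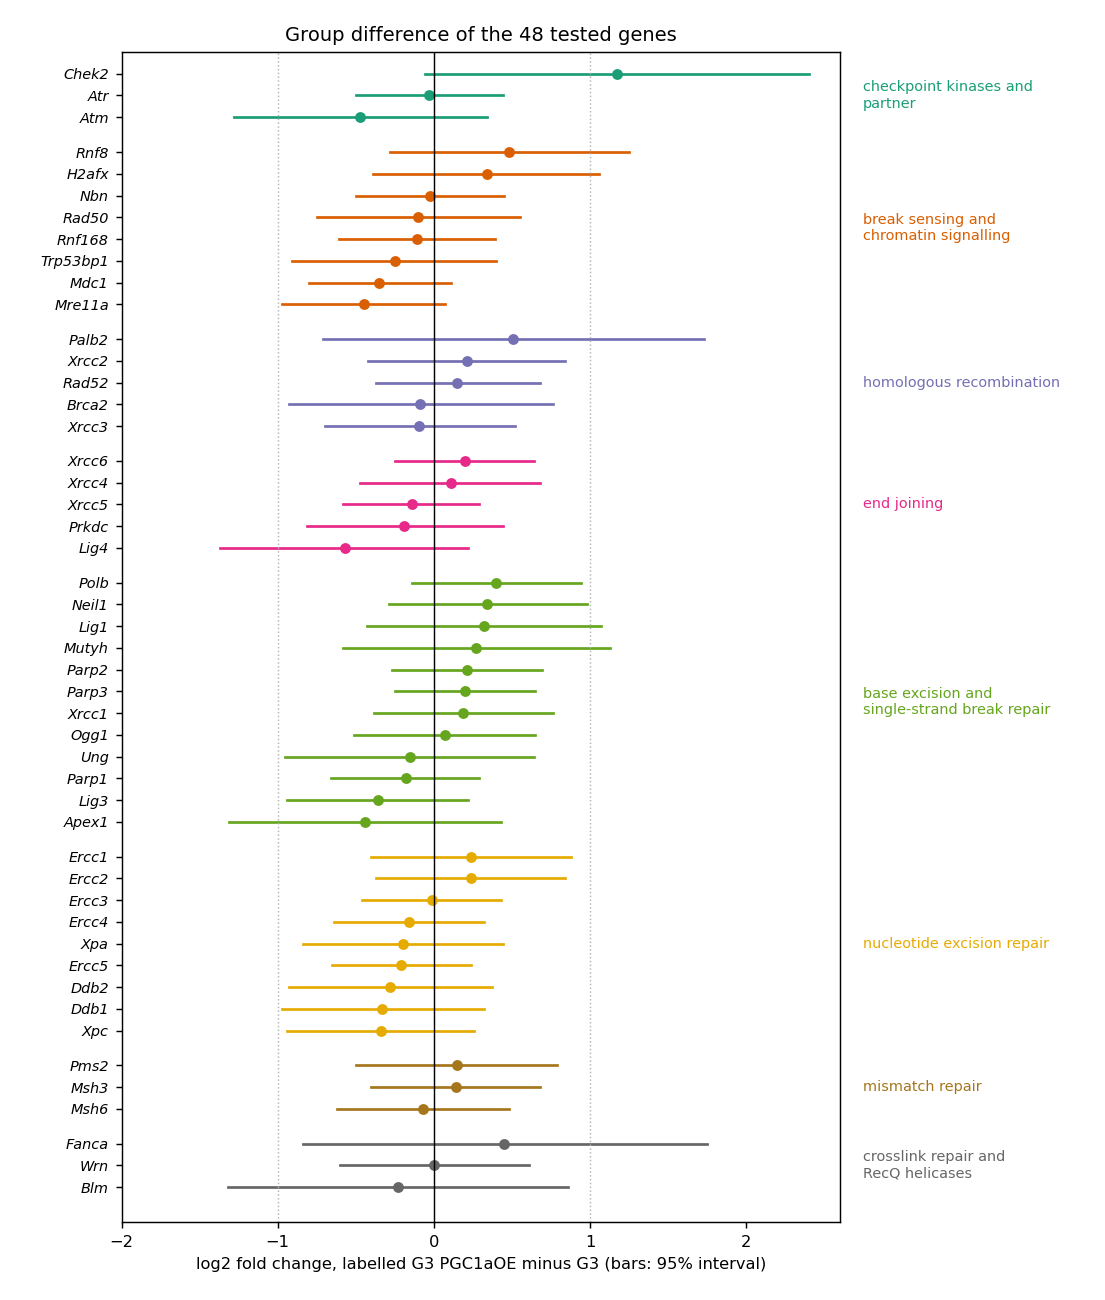
Log2 fold change of the 48 tested genes, libraries labelled G3 PGC1aOE minus G3, from edgeR, grouped by role (points, estimates; bars, 95% intervals; dotted lines, a 2-fold change). Every interval includes 0, and the interval of Chek2, from −0.057 to 2.40, comes closest to leaving it on the upper side.

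Among the checkpoint kinases, Chek2 had the greatest difference of the set but did not pass. Chek2 (ENSMUSG00000029521), an effector kinase activated by ATM, stood at 0.455, 0.960, 1.88 and 1.73 CPM in G3 1 to 4 and at 1.09, 4.66 and 2.80 CPM in G3 PGC1aOE 1 to 3. G3 PGC1aOE 2 and 3 were above every G3 library, whereas G3 PGC1aOE 1 lay among them. The log2 fold change was 1.17 (SE 0.56, edgeR adjusted p = 0.847, unadjusted p = 0.0596), from 178 reads in all. It was 0.62 without G3 PGC1aOE 2 and 1.55 without G3 PGC1aOE 1. Atr (ENSMUSG00000032409), the kinase of stalled forks and single-stranded DNA, was nearly level, at 13.5, 10.8, 13.5 and 13.1 CPM against 14.2, 13.3 and 9.86 CPM (log2 fold change −0.030, 95% interval −0.50 to 0.44). Its sign changed in several alternative fits. Atm, the kinase of double-strand breaks, had −0.47 (SE 0.37), with G3 PGC1aOE 2 lowest at 2.84 CPM, G3 PGC1aOE 3 at 6.62, G3 PGC1aOE 1 at 10.1 and the G3 libraries at 7.47 to 10.2 CPM.

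The genes that sense breaks and mark the surrounding chromatin had lower values for 6 of 8 (median log2 fold change −0.10), and none passed. The median was −0.36 without G3 PGC1aOE 1, −0.011 without G3 PGC1aOE 2 and −0.040 without G3 3. The MRN complex of Mre11a, Rad50 and Nbn tethers broken ends and activates ATM. Mre11a (ENSMUSG00000031928), its nuclease, stood at 7.47, 7.09, 9.14 and 8.41 CPM in G3 1 to 4 and at 6.98, 4.87 and 5.74 CPM in G3 PGC1aOE 1 to 3. It was the only gene of the 48 whose libraries did not overlap between the groups (2.08% of the set), beside 4.59% of all tested genes. The means were 8.03 ± 0.928 CPM (SD, n = 4) and 5.86 ± 1.06 CPM (SD, n = 3), and the log2 fold change was −0.45 (SE 0.24, 95% interval −0.97 to 0.069, edgeR adjusted p = 0.847). The gap was narrow, at 7.09 against 6.98 CPM. The estimate ran from −0.60 without G3 PGC1aOE 1 to −0.34 without G3 PGC1aOE 2.

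Its partners did not share the separation. Nbn (ENSMUSG00000028224), the most abundant of the class, measured 16.8, 19.0, 23.5 and 21.1 CPM against 16.6, 19.0 and 23.7 CPM, a log2 fold change of −0.025 (95% interval −0.50 to 0.45). Rad50, the ATPase of the complex, had −0.099. Of the factors that act on chromatin around the break, Mdc1, the reader of phosphorylated H2AX, had −0.35, Trp53bp1, which favours end joining, −0.25, and the ubiquitin ligase Rnf168 −0.11. The ligase Rnf8 (0.48) and the histone gene H2afx (0.34) were the 2 members with positive values.

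Homologous recombination genes fell into an expressed and a barely detected part. Rad52, an annealing factor (5.54 FPKM), and the recombinase paralogs Xrcc3 (5.50) and Xrcc2 (2.93) were readily measured. Brca2, which loads the recombinase, averaged 0.767 FPKM, Palb2, which bridges Brca1 and Brca2, 0.295, Bard1 0.122 and its ubiquitin ligase partner Brca1 0.0906 FPKM. Brca1 had 2, 1, 0 and 4 reads in G3 1 to 4 and 1, 4 and 4 reads in G3 PGC1aOE 1 to 3, and the count of 0 in G3 3 allows a level of up to 0.267 CPM (counting error only). Markers of proliferating cells were low in the same libraries: 11 of 13 averaged below 1 FPKM, none was at 0 in every library, and their sum was 5.72 to 8.86 FPKM in G3 and 5.93 to 12.2 FPKM in the libraries labelled G3 PGC1aOE. Among the 6 that could be tested, 5 had higher values under the PGC1aOE label (median log2 fold change 0.43), and none passed. Their part in the recombination genes was not tested.

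Between the groups, 3 of the 5 tested recombination genes were higher, with a median of 0.15. Palb2 (ENSMUSG00000044702) had the smallest p, at 0.547, 1.18, 0.448 and 0.225 CPM against 0.775, 0.946 and 0.883 CPM (log2 fold change 0.51, SE 0.55, edgeR adjusted p = 0.856). The G3 libraries spanned the whole range of the other group, and without G3 4 the value was 0.24. Rad52 (ENSMUSG00000030166) measured 6.83, 6.42, 5.74 and 5.03 CPM against 6.43, 7.71 and 5.88 CPM, a log2 fold change of 0.15 (95% interval −0.37 to 0.68) that was 0.037 without G3 PGC1aOE 2. Xrcc2 had 0.21, Brca2 −0.089 and Xrcc3 −0.092.

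End joining genes were expressed in every library. Ku, encoded by Xrcc5 and Xrcc6, caps the end and recruits the kinase encoded by Prkdc, and Xrcc4 with Lig4 seals it. Xrcc6 (ENSMUSG00000022471) measured 20.8, 14.8, 20.3 and 19.4 CPM against 20.8, 23.7 and 20.1 CPM, a log2 fold change of 0.20 (SE 0.20, edgeR adjusted p = 0.853). The value was 0.098 without G3 2, 0.12 without G3 PGC1aOE 2 and 0.047 with the trend on length removed. The ligase gene Lig4 (ENSMUSG00000049717) had the smallest p of the class, at 7.29, 5.98, 9.59 and 5.41 CPM against 6.90, 2.47 and 4.85 CPM. The groups overlapped through G3 PGC1aOE 1, and the log2 fold change was −0.57 (SE 0.36, edgeR adjusted p = 0.847), with −0.26 without G3 PGC1aOE 2 and −0.95 without G3 PGC1aOE 1. Xrcc5, Prkdc and Xrcc4 had −0.14, −0.19 and 0.11, and the class median was −0.14.

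Of the base excision and single-strand break repair genes, 8 of 12 had higher values (median log2 fold change 0.19), and none passed. The median was 0.020 without G3 PGC1aOE 2. Polb (ENSMUSG00000031536) had the smallest p. It stood at 21.8, 17.9, 20.8 and 20.2 CPM in G3 1 to 4 and at 17.1, 30.7 and 32.2 CPM in G3 PGC1aOE 1 to 3. Those in G3 PGC1aOE 2 and 3 were above all G3 libraries, and that in G3 PGC1aOE 1 was below them. The log2 fold change was 0.40 (SE 0.24, 95% interval −0.14 to 0.94, edgeR adjusted p = 0.847), and it was 0.24 without G3 PGC1aOE 3 and 0.64 without G3 PGC1aOE 1.

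Parp1 (ENSMUSG00000026496) measured 33.9, 34.8, 48.5 and 45.5 CPM against 39.2, 30.5 and 37.8 CPM, a log2 fold change of −0.18 (95% interval −0.66 to 0.29), which was −0.079 without G3 PGC1aOE 2. The related polymerases Parp2 and Parp3 had 0.21 and 0.20. Of the glycosylases that remove single bases from DNA, Neil1 had 0.34, Mutyh 0.27, Ogg1 0.070 and Ung −0.15. The scaffold Xrcc1 had 0.19 and the ligases Lig1 and Lig3 0.32 and −0.36. Apex1, the endonuclease that cuts at the abasic site, had −0.44 (SE 0.39), with G3 PGC1aOE 2 lowest at 1.6 CPM and the other 6 libraries between 3.41 and 6.23 CPM.

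For nucleotide excision repair, 7 of 9 genes had lower values (median log2 fold change −0.20), and again none passed. The median was −0.11 without G3 PGC1aOE 3 and −0.13 without G3 1. Xpc (ENSMUSG00000030094), which finds distorted DNA, stood at 15.5, 15.0, 14.7 and 12.4 CPM in G3 1 to 4 and at 16.9, 8.80 and 8.46 CPM in G3 PGC1aOE 1 to 3. It was lower in G3 PGC1aOE 2 and 3 than in any G3 library and highest of all in G3 PGC1aOE 1. The log2 fold change was −0.34 (SE 0.27, edgeR adjusted p = 0.847), −0.74 without G3 PGC1aOE 1 and −0.17 without G3 PGC1aOE 3. Ddb1 (ENSMUSG00000024740) was also lower in G3 PGC1aOE 2 and 3 than in any G3 library, at 230, 146, 171 and 154 CPM against 197, 105 and 117 CPM, with a log2 fold change of −0.33 (95% interval −0.97 to 0.32) that was −0.66 without G3 PGC1aOE 1, −0.16 without G3 PGC1aOE 2 and −0.17 without G3 1.

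The other nucleotide excision genes had smaller values. Ddb2 had −0.28, the endonuclease Ercc5 −0.21, Xpa −0.20 and Ercc4 −0.16. The TFIIH helicases Ercc2 and Ercc3 had 0.24 and −0.013, and Ercc1 had 0.24. Ercc1 was highest in G3 PGC1aOE 2 at 40.8 CPM, with the remaining libraries between 18.7 and 30.1 CPM.

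No mismatch repair or crosslink repair gene passed, and the class medians were 0.14 and 0.0041. Msh3 (ENSMUSG00000014850), which recognises insertion and deletion loops, had both the smallest p and the highest FPKM of its class, at 5.19, 6.35, 7.53 and 6.91 CPM against 8.76, 6.62 and 6.11 CPM (log2 fold change 0.14, 95% interval −0.40 to 0.68). Msh6, which recognises mispaired bases, had −0.071 and the endonuclease Pms2 0.15. Per base of the longest coding transcript, Msh3 and Msh6 were nearly level, at 1.73 and 1.71. Fanca (ENSMUSG00000032815), of the Fanconi core complex, varied widely at 0.182, 1.11, 1.34 and 0.526 CPM against 0.698, 1.38 and 1.18 CPM, with a log2 fold change of 0.45 (SE 0.59, edgeR adjusted p = 0.876) that was 0.14 without G3 1 and 0.79 without G3 3. The helicase gene Wrn (ENSMUSG00000031583), whose loss causes premature ageing in people, measured 5.28, 4.06, 5.47 and 4.73 CPM against 6.05, 3.49 and 5.15 CPM, a log2 fold change of 0.0041 (95% interval −0.60 to 0.61). Blm, a related helicase, had −0.23.

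**Figure D3:**
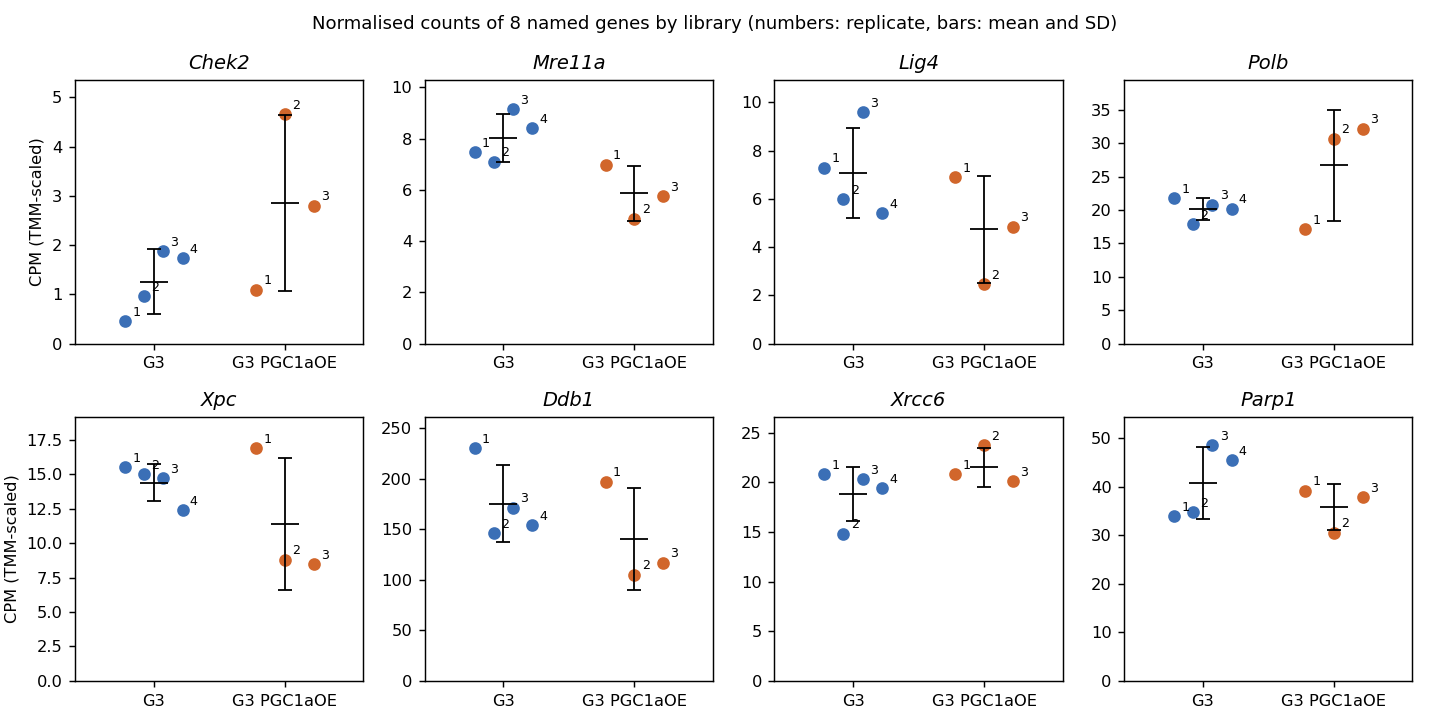
Normalised counts (CPM, TMM-scaled, axes from 0) of 8 genes by library; numbers give the replicate, and bars the mean and SD of 4 libraries labelled G3 and 3 labelled G3 PGC1aOE. For Chek2, Polb, Xpc and Ddb1, G3 PGC1aOE 1 lies nearer to the G3 libraries than to G3 PGC1aOE 2 and 3.

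Contrasted by class, the group means differed by less than the larger of the SDs of both groups in all 8 classes. The mean log2 CPM of the 12 base excision genes was 3.25 ± 0.11 (SD, n = 4) in G3 and 3.30 ± 0.10 (SD, n = 3) in the libraries labelled G3 PGC1aOE, and that of the 9 nucleotide excision genes was 3.95 ± 0.14 and 3.82 ± 0.16. End joining had 3.54 ± 0.14 and 3.38 ± 0.23, break sensing 3.28 ± 0.12 and 3.20 ± 0.16, and recombination 1.54 ± 0.28 and 1.69 ± 0.09. In all 8 classes the libraries of both groups overlapped. The sample descriptions also carry an unexplained code with text and a number. The text holds G2 for G3 1, G3 3 and G3 PGC1aOE 1, and G3 for the other libraries. It begins with P for G3 4 and for every library labelled G3 PGC1aOE. It holds a C for G3 1, G3 2 and every library labelled G3 PGC1aOE. Only the libraries labelled G3 PGC1aOE hold both letters. The number is 40, 67, 50 and 83 for the G3 libraries in order and 55, 81 and 82 for the others. A cut of this number at 80 puts G3 2 with the libraries whose text holds G2, so it is not a split by the text. Below 80 the group difference in class mean was 0.12 for break sensing, 0.052 for end joining, 0.0021 for base excision and −0.086 for nucleotide excision. At 80 and above it was −0.24, −0.26, −0.043 and −0.12, with 1 G3 library on that side, as there is 1 G3 PGC1aOE library below 80. For Chek2 the difference in log2 CPM was 0.15 below 80 and 1.00 at 80 and above, for Polb −0.24 and 0.63, for Xpc 0.17 and −0.51, and for Mre11a −0.17 and −0.65, a sign that the lack of overlap fixes.

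**Figure D4:**
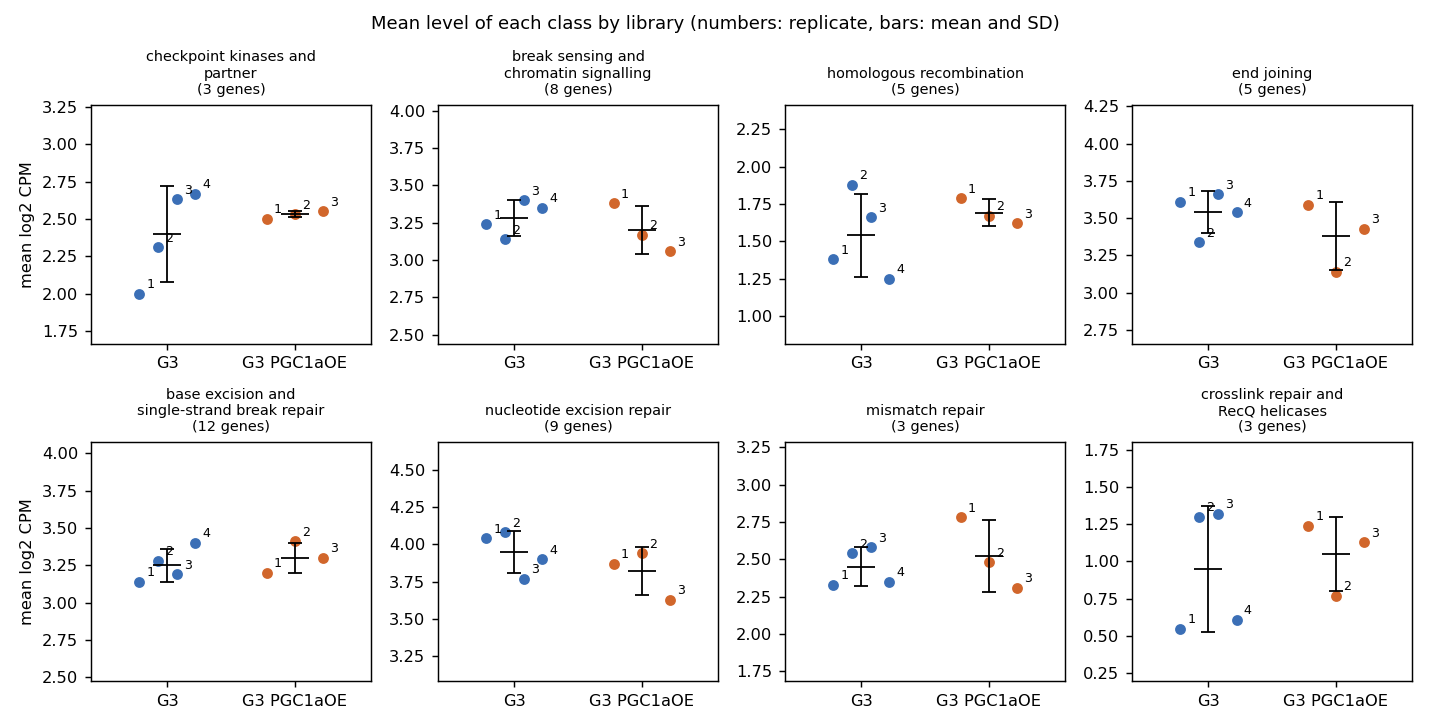
Mean log2 CPM of the tested genes of each class by library; numbers give the replicate, bars the mean and SD, and each panel spans the same width of 1.6 log2 units. In every class the libraries labelled G3 (n = 4) and G3 PGC1aOE (n = 3) overlap.

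Gene length moved with the group difference. Of the 9 tested repair genes with a length over 3000 bases, 8 had negative values (median log2 fold change −0.23). Of the 39 with a length up to 3000 bases, 21 had positive values (median 0.11). By the longest coding transcript, 28 tested repair genes exceeded 3000 bases and 18 of them had negative values. Over all tested genes, by the length behind the FPKM, 1951 of 2941 longer genes had negative values (median −0.14). Of 9733 shorter genes, 5466 had positive values (median 0.052), so the pattern was not limited to repair genes. Across the 48 genes, Spearman's rho between length and log2 fold change was −0.44, beside −0.34 across all 12674, as a description across genes that share the libraries. The correlation of a gene's deviation from its mean with log2 length was 0.59 in G3 PGC1aOE 1 and −0.47 and −0.43 in G3 PGC1aOE 2 and 3 over the repair genes, and between −0.15 and 0.40 in the G3 libraries. G3 PGC1aOE 2 held the lowest value of 13 (27.1%) and the highest of 12 (25.0%) of the 48 genes, beside 27.2% and 26.2% of all tested genes. With each library's trend on length removed, a step chosen after seeing the data, the class medians were −0.20 for nucleotide excision, 0.17 for base excision, −0.065 for break sensing and 0.00024 for end joining. Chek2 then had 0.89 and Mre11a −0.42, and 0 repair genes had an unadjusted p under 0.05.

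Removing G3 PGC1aOE 1 had a wide effect. Without that library 10 of 48 repair genes had an unadjusted p under 0.05, namely Lig3, Prkdc, Ddb1, Chek2, Xpc, Polb, Mre11a, Atm, Trp53bp1 and Lig4, named after their values were seen. Of all tested genes, 19.1% did so, and none passed after adjustment by edgeR. G3 PGC1aOE 1 is the only library of its group whose code text holds G2, whereas the G3 group has libraries of both texts. Removing it thus leaves the groups unlike in code text as well, and the part of the code in these counts was not tested.

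**Figure D5:**
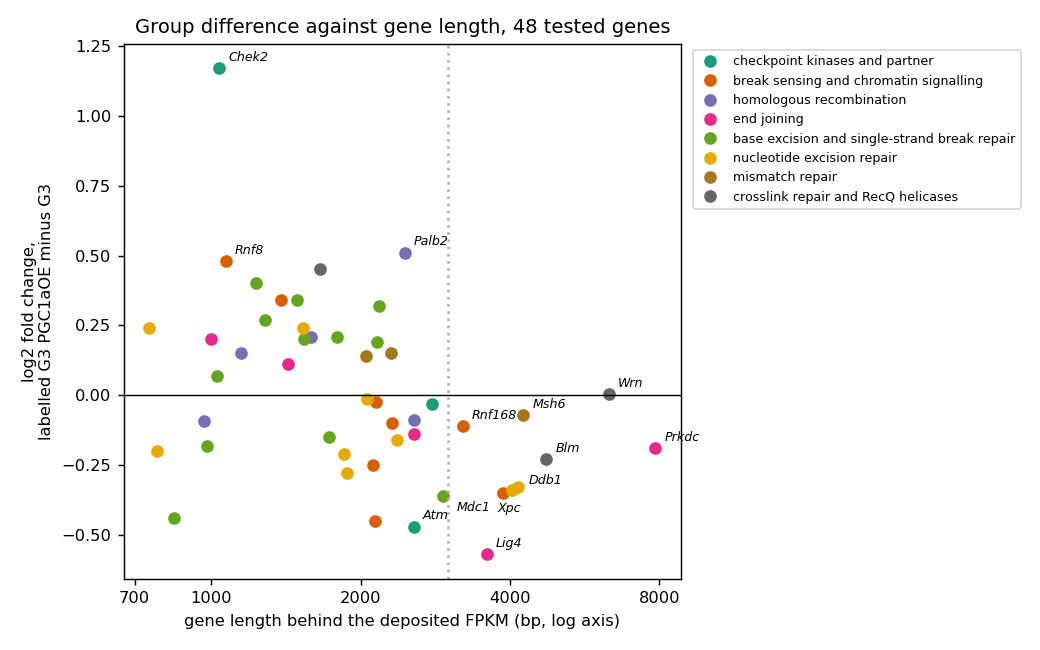
Log2 fold change of the 48 tested genes (labelled G3 PGC1aOE minus G3) against the gene length behind the deposited FPKM, on a log axis, coloured by role; the dotted line marks 3000 bases. Of the 9 genes to its right, 8 lie below 0, and Wrn lies at 0.0041.

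Other genes of the same pathways did not pass either, and not every class had the direction of its members. Of 89 further genes assigned to the 8 classes, 80 could be tested, 39 were higher and 41 lower, with a median of −0.011. The class median was −0.039 for base excision (4 of 13 higher) and 0.16 for end joining (4 of 6 higher). It was −0.058 for mismatch repair (2 of 6 higher) and 0.033 for checkpoint kinases (6 of 10 higher). In these classes the sign was opposite to that of the members. The sign was the same for nucleotide excision (−0.063), break sensing (−0.047), recombination (0.16) and crosslink repair (0.043). edgeR called 0 of them, and 0 had an unadjusted p under 0.05, while 4 (5.0%) did not overlap between the groups, beside 4.59% of all tested genes. The smallest p values on the higher side belonged to Polm, a polymerase of end joining (log2 fold change 0.79, SE 0.37), and the TFIIH subunit gene Gtf2h5 (0.46, SE 0.24), and among those on the lower side was the nuclease gene Fan1 (−0.79, SE 0.46). Each of these genes had an edgeR adjusted p of 0.847.

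Promoter sequences were read for a few exact strings of the kind bound by E2F, the factor that turns on S-phase genes. RefSeq promoters of the GRCm38.p6 build, from 250 bases before to 50 after the start site, were found for 42 of the 53 genes (46 promoters). The letters searched were TTTCCCGC, TTTCGCGC, TTTGCCGC and TTTGGCGC on both strands; on the other strand of a gene they read as GCGGGAAA or GCGCGAAA, for example. They were present in 8 of 46 promoters (17.4%), where 2.26% of all 32851 promoters in the table held them. That second share covers every promoter listed, without matching for base content or expression, so an excess particular to these genes was not tested. A match describes letters only, and variants of these letters were not searched, so a gene without a match may still carry one. Each matched stretch is shown 5′ to 3′ on the strand of the gene with 10 bases on either side and the matched letters in capitals, since the 8 genes range from barely detected to abundant.
Chek2: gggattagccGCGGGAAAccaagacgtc
Mdc1: cttcagcctgTTTCCCGCcggtagccgc
Brca2: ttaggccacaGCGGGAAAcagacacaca
Bard1: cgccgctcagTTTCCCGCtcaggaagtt
Xrcc6: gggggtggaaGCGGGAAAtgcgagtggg
Lig1: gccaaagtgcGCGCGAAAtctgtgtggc
Msh3: tgccgtcaagTTTGGCGCgaaatcgcag
Msh6: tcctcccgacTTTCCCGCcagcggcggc

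In GRCm38.p6 these stretches lie at chr5:110839821-110839848 on the plus strand for Chek2, chr17:35841472-35841499 (plus) for Mdc1, chr5:150522443-150522470 (plus) for Brca2, chr1:71103164-71103191 (minus) for Bard1, chr15:82016313-82016340 (plus) for Xrcc6, chr7:13278842-13278869 (plus) for Lig1, chr13:92355188-92355215 (minus) for Msh3 and chr17:87975055-87975082 (plus) for Msh6. The first matched base stood 152, 16, 168, 209, 46 and 202 bases before the start site in Chek2, Mdc1, Brca2, Bard1, Xrcc6 and Msh3, and at base 27 and base 16 of the transcript in Lig1 and Msh6. In Msh3 a second match on the other strand overlapped the one shown. The levels of these genes ran from 0.122 FPKM for Bard1 to 20 FPKM for Xrcc6, with a median of 1.75 FPKM, beside 4.63 FPKM (0.0906 to 39.5) for the 34 genes without the letters in this window. Brca1, the lowest gene of the set, was among those without a match.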

How the data were processed

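RNA of left ventricle was measured in 7 libraries made with a kit that does not mark strand, per the labels' protocols. The authors deposited whole-number read counts per Ensembl gene together with FPKM, in which 1 fixed length per gene and the total of each column are divided out of the same counts. The submitters' processing notes list CASAVA, Bowtie 0.12.2 and the mm9 build. How reads were counted, on which annotation, and what became of reads with several matches is not given in the sources used here. Gene symbols matched 21748 of 22027 identifiers, and the other 279 held 0.0231% to 0.0295% of counts.

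Counts were filtered with filterByExpr, which left out 9353 genes, scaled by TMM and tested with edgeR 4.0.16 under R 4.3.3 (quasi-likelihood, robust, 2-sided, group as the only term, Benjamini-Hochberg at 0.05 over all genes tested). Log2 CPM used a prior count of 2. Alternatives used limma 3.58.1, DESeq2 1.42.0, other scalings, filters and covariates, log2 of FPKM plus 1 or 0.1, and each library left out. The script was tested on simulated data.

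Members and lists were chosen with earlier results of these data known. Given in every library are, per class, the tested gene of smallest p and of highest FPKM, and genes with an unadjusted p under 0.05 or no overlap between groups. At most 2 genes per marker list were to be named, and of the other repair genes the 2 of smallest p per direction when none passed. A further gene that this rule picks is not reported here. A planned count of NRF1 letters in promoters was also left out, because its letters could not be given.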

Additional observations from a re-analysis of the deposited data

Results flagged for a closer look

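Atr in G3 2, at 10.8 CPM, lay below the other 3 G3 libraries, which stood between 13.1 and 13.5 CPM. The gap to the nearest library was 0.846 of the whole range, above Dixon's 95% critical value for 4 libraries. It was the only such gap among 48 genes tested, and chance alone gives about 1 in 20 groups.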

How the results depend on the processing

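No repair gene and none of the further genes of the same pathways passed under any of the 18 alternatives, and the count of all genes called was 0 except for 3 with DESeq2 and 6 with the replicate block. Depth limits the 5 untested genes. At an unadjusted p under 0.05 the count of all genes was 1121 with limma voom, 1160 with the replicate block, 307 with the covariate for the code number and 231 to 2464 with each library left out. That of repair genes was 1 without a filter on low counts, 3 with limma voom, 2 with the replicate block and 0 to 10 with each library left out (10 without G3 PGC1aOE 1). Log2 FPKM with a pseudocount of 1 or 0.1, on the log2(value + pseudocount) scale, shifted the median of all genes to −0.081 and −0.11, that of repair genes to −0.098 and −0.15 and that of base excision to 0.046 and 0.048. Break sensing moved to −0.24 with the pseudocount of 0.1. Base excision was 0.062 with limma voom. With each library left out, the median ran from −0.36 to −0.011 for break sensing, 0.020 to 0.24 for base excision, −0.27 to −0.11 for nucleotide excision, 0.064 to 0.15 for recombination, −0.19 to −0.069 for end joining, −0.14 to 0.11 for checkpoint kinases, −0.034 to 0.20 for mismatch repair and −0.18 to 0.20 for crosslink repair. Class medians of level per base of the longest coding transcript, an alternative chosen after seeing the data, moved to 0.813 for checkpoint kinases, 1.81 for break sensing, 0.193 for recombination, 4.50 for base excision and 4.67 for nucleotide excision. The cause of these shifts was not tested, other than the change of length itself.

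Among the genes given library by library, the sign changed for Wrn, Nbn, Atr and Msh3, whose values lay near 0. Class medians near 0 could change sign as well, such as end joining with 0.00024 without the length trend. Wrn had −0.0024 with RLE scaling, −0.015 without a filter, −0.0017 with DESeq2, −0.047 and −0.12 on log2 FPKM and −0.034 with the replicate block, and Nbn had 0.094 with limma voom and 0.0011 without the length trend. Atr had 0.0040 with the code text as covariate, 0.011 with the code number and 0.029 without the length trend. With each library left out, Wrn ran from −0.18 to 0.20, Nbn from −0.18 to 0.082, Atr from −0.14 to 0.11 and Msh3 from −0.034 to 0.24. Palb2 gave no value under 2 alternatives that filtered it out.

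The labels give both groups the replicate numbers 1 to 3. Deviations of same-numbered libraries from their group means correlated at 0.456, 0.123 and −0.0863, and not every library correlated best with its own number. The numbers were therefore not taken as pairs. Across the groups, every pair of libraries sharing G2 or G3 in the code text correlated positively, from 0.0913 to 0.456. Every other pair correlated negatively, from −0.469 to −0.0863. Deviations from a group mean depend on each other, so these correlations are not independent. With the replicate block, Chek2 and Lig4 had an unadjusted p under 0.05 and an adjusted p of 0.473 and 0.516.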
